A study of Rattus norvegicus with 85 samples.

Results

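A-to-I RNA editing was compared between the F1 and F2 generations of control rats in newborn prefrontal cortex (PFC), to ask how far editing levels differed between generations that had no stress treatment. The samples were those labelled as PFC, postnatal day 0 and control, in the F1 (5 samples) or F2 generation (6 samples after 1 was left out), which makes 11 of the 85 samples of the series. All were Sprague-Dawley pups sacrificed on postnatal day 0, from the control (C) line, in which the founding females had no pre-reproductive stress (PRS). F1 pups were the offspring of control females mated with naïve males, and F2 pups the offspring of adult F1 control males mated with naïve females, so that generation goes together with the parent through which the line was passed on. The F1 group held 1 female (replicate 43) and 4 males (66, 68, 69 and 71). The F2 group held 2 females (130 and 131) and 4 males (150, 154, 157 and 160), as the labels give the sexes, although the study's methods describe the F2 pups as males. Statements on sex here follow the labels. Each sample was a bilateral tissue punch, and the labels do not give litters, so p-values measure the spread between these samples only. F2 replicate 155 was left out because 35.6% of the study's 146 sites had under 50 reads in it.

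Editing of the serotonin 2C receptor transcript at sites A and B was lower on average in the newborn PFC of F2 than of F1 control rats, at 27.6% ± 16.0 (SD, n = 6) against 63.6% ± 20.1 (SD, n = 5) for site A and 19.7% ± 12.02 (SD, n = 6) against 56.8% ± 21.8 (SD, n = 5) for site B. No single site passed the false discovery rate (FDR) of 0.1 over the 144 sites tested. The mean level of the 134 sites with a level in all 11 samples was 8.56% ± 0.737 (SD, n = 5) in F1 and 7.36% ± 0.681 (SD, n = 6) in F2, a difference of -1.21 percentage points (exact two-sided permutation p = 0.0303). The generation difference of control PFC ran against that of the stressed line at Htr2c A and B and at an Adarb1 site, in a test of the difference itself. A Gtf3c2 site also passed that test, but not with sets of 48 consecutive library numbers as a block (adjusted permutation p = 0.171). The Adarb1 site no longer passed when any of F1 control 66, F2 control 131, F2 control 154 or F1 PRS 67 was left out.

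A-to-I editing is the deamination of adenosine to inosine in double-stranded RNA by ADAR enzymes. Inosine is read as guanosine by ribosomes and by sequencing, so editing in a coding exon can change an amino acid, which is called recoding. In brain, recoding is best known for glutamate receptor subunits, where it sets calcium permeability and gating, and for the serotonin 2C receptor, where it lowers coupling to G proteins. Editing was measured by mmPCR-seq, in which many edited loci are amplified together in a microfluidic PCR and sequenced deeply. An editing level is the percentage of reads with the edited base at a site.

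Some of the sites described here shared an amplicon, which makes such neighbouring sites partly the same reads. The gene-specific ends of 3 primer pairs are shown because each pair carried several of the sites described here. Capitals mark the part that anneals to the transcript, written 5′ to 3′, with the library tail left out.
Htr2c coding, forward: CTTAGTCCGCGAATTGAACC
Htr2c coding, reverse: GGGGATTATGTCTGGCCTTTA
Grik2 Y/C and I/V, forward: ACCAAATGCCTCCCACTATC
Grik2 Y/C and I/V, reverse: TCTCCCCTGATATCTGGATGT
Adarb1, forward: GCCTCAGATTTGAGCCAAAA
Adarb1, reverse: CTGTGGTGCCCAGAAAGA
The Htr2c pair covered sites A (chromosome X, position 31041849), B (31041847), C (31041842) and D (31041837) in 1 exon, all positions being in build rn4. The Grik2 pair covered the Y/C site (chromosome 20, position 53408958) and the I/V site (53408971). The Adarb1 pair covered the sites annotated to its 5′ UTR at chromosome 20, positions 11709472 and 11709486.

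Summed reads over the 179 listed sites ranged from 689665 to 2713477 in F1 and from 1777113 to 3046905 in F2. A level was used where at least 50 reads covered the site, and a site was tested where at least 3 samples of each generation had a level, which left 144 sites. A level of 50% measured on 50 reads has a 95% Wilson interval of 36.6% to 63.4%, and at the Htr2c coding sites, with at least 2503 reads in every sample, the widest interval was that of site A in F1 replicate 68, from 52.6% to 56.5%. These intervals cover counting error only, because mmPCR-seq reads carry no molecular identifiers. Libraries carry a running number, and in sets of 48 consecutive numbers the F1 males lay in set 5, the F1 female in set 1, the F2 males in set 4 and the F2 females in set 6. No set held both generations of control PFC, so that set and generation cannot be told apart in this comparison. At Mcrs1, Slco2a1 and 2 of the Psma3 sites the 4 F2 males of set 4 had at most 34 reads, which is why 4 of the 146 sites could not be tested. No 2 samples of a group agreed within counting noise.

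Across the 144 sites, 89 had a lower mean in F2, 52 a higher mean and 3 the same mean. The median difference was -0.0733 percentage points, at a median level of 1.13% in F1 and 1.26% in F2. Of the 144 sites, 0 (0%) passed FDR 0.1 in the Mann-Whitney U test (exact, two-sided), and the smallest adjusted p was 0.397. An unadjusted exact p under 0.05 was reached by 14 sites, which is 9.72% of those tested. Of these, 12 were lower in F2 (8.33%) and 2 higher (1.39%). No site (0%) had levels that did not overlap between the generations. With 462 ways to split the 11 samples, the smallest p this test can give is 0.00433. The exact permutation test of means, the Mann-Whitney test with R's default p, and limma on logit levels also called 0 sites at FDR 0.1 and gave 15, 13 and 13 sites at an unadjusted p under 0.05. A quasi-binomial logistic model on the reads called 4 sites: Htr2c A and B, Grik2 G and a synonymous Cadps site. The 14 sites are named here because of their values, and none of them passed the planned threshold.

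**Figure D1:**
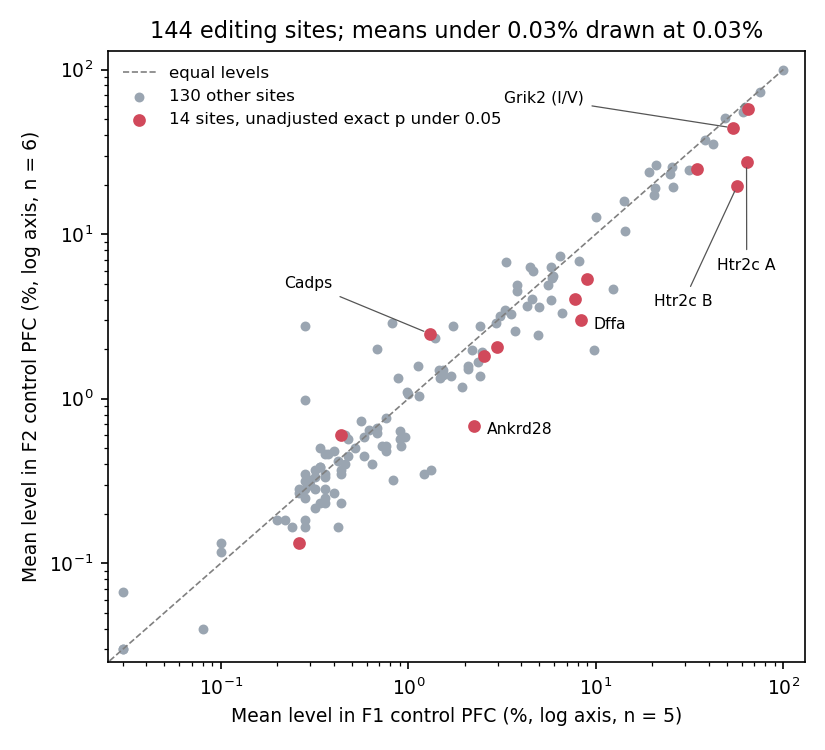
Mean editing level of 144 sites in F1 (x axis, n = 5) and F2 (y axis, n = 6) newborn control PFC, in percent on log axes, with means under 0.03% drawn at 0.03%. The red points are the 14 sites with an unadjusted exact p under 0.05, of which 12 lie below the dashed line of equal levels, Htr2c A and B among them.

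Htr2c encodes the serotonin 2C receptor, a G protein-coupled receptor whose coding exon holds the sites A and D (Ile to Val), B (Ile to Met) and C (Asn to Ser). At site A the F1 levels were 34.7% in replicate 43, 84.0% in 69, 80.3% in 71, 64.6% in 66 and 54.5% in 68, and the F2 levels ran from 9.3% to 47.5% with a median of 27.45%. The 4 F1 males all lay above every F2 sample, and the F1 female lay within the F2 range. The difference in means was -36.0 percentage points (exact p = 0.0303, adjusted p = 0.397). At site B the F1 levels were 29.7%, 83.8%, 70.4%, 59.1% and 41.2% in the same order, and the F2 levels ran from 7.8% to 39.4% with a median of 17.15%. Again the F1 males lay above every F2 sample and the F1 female within their range, and the difference in means was -37.1 percentage points (exact p = 0.00866, adjusted p = 0.397). Site B kept an unadjusted p under 0.05 in each of the 26 other settings tried (highest p 0.0317, exact and model tests together). Site A kept it in 18 of 26, with a highest exact p of 0.0667. Settings that changed only the minimum of reads, the list of sites or the adjustment could not alter these unadjusted p-values. The 26 settings are therefore not 26 separate checks. With each of the 11 samples left out in turn, site B kept a p under 0.05 in 11 of 11 (highest exact p 0.0190). Site A kept it in 4 of 11. These 11 settings share most of their samples.

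Sites C and D, a few bases away in the same reads, overlapped widely between the generations. Site C stood at 10.2%, 26.8%, 32.7%, 24.4% and 34.4% in F1 and between 4.7% and 49.6% in F2, with an F2 median of 13.6%. The group means were 25.7% ± 9.59 (SD, n = 5) and 19.2% ± 16.7 (SD, n = 6), with an exact p of 0.247. Site D stood at 18.9%, 21.9%, 52.4%, 48.4% and 69.0% in F1 and between 8.1% and 68.0% in F2, with an F2 median of 35.45%. The means were 42.1% ± 21.3 (SD, n = 5) and 35.4% ± 24.98 (SD, n = 6), and the exact p was 0.662. F2 replicate 131 was the highest F2 sample at both C and D.

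Within a sample the 4 sites kept a partial order. Site A was above B in 10 of 11 samples and equal to it in 1, by a median of 5.5 percentage points. Site C was below D in 10 of 11 samples, the exception being F1 replicate 69. Site D was above A in 1 of 5 F1 samples and in 5 of 6 F2 samples. A minus D was 21.5 percentage points ± 27.6 (SD, n = 5) in F1 and -7.80 ± 11.9 (SD, n = 6) in F2 (exact two-sided permutation p = 0.0368), a comparison chosen after the levels were seen.

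**Figure D2:**
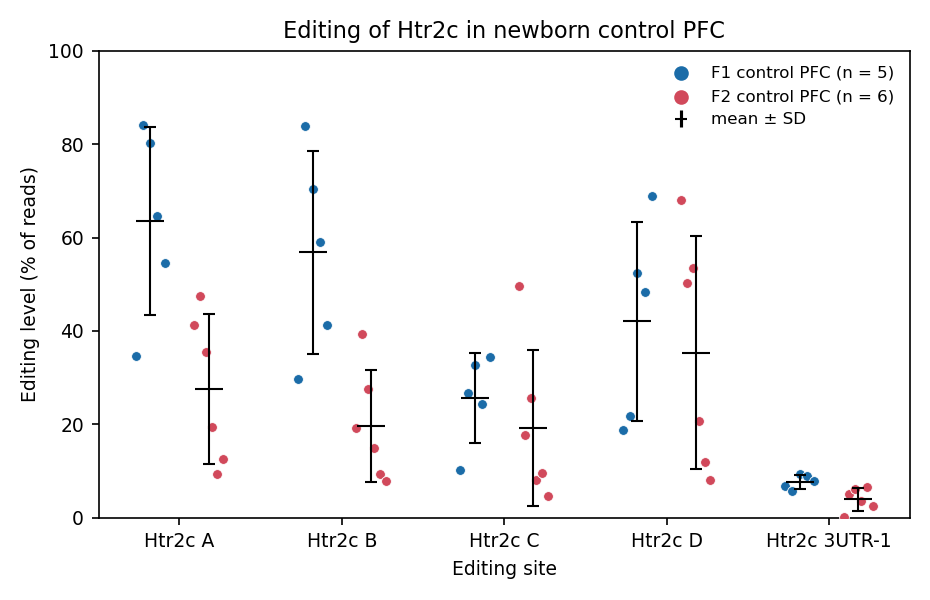
Editing level (percent of reads, y axis) at the 4 coding Htr2c sites and a 3′ UTR site of Htr2c (x axis) in each F1 (blue, n = 5) and F2 (red, n = 6) control PFC sample, with black bars for mean ± SD. At A and B, 4 of the 5 F1 samples lie above all F2 samples, while C and D overlap.

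The 3′ UTR of Htr2c, amplified separately, holds the site at chromosome X, position 31014486. Its levels were 6.8%, 5.7%, 9.3%, 8.9% and 7.8% in F1 replicates 43, 69, 71, 66 and 68, and ran from 0.1% to 6.7% in F2 with a median of 4.3%. All F1 samples but replicate 69 lay above every F2 sample (exact p = 0.0173, adjusted p = 0.397). The 6 Htr2c sites among the study's 146 all had lower F2 means, with a median difference of -6.61 percentage points, beside -0.0733 over all sites tested. Of these, 3 had an unadjusted p under 0.05, against 9.72% of all sites.

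Htr2c is also transcribed strongly in choroid plexus, and a cortical punch can hold other cells. The study measured a choroid plexus marker, coagulation factor V, in newborn F1 samples of both lines. It reported low expression in all of them and no correlation with editing at site A or B. Only F1 samples were named for that measurement. Here the read shares of amplified marker genes are given beside these levels. They are reads after multiplex PCR and not expression. The Htr2c coding amplicon took 0.367% to 0.550% of the summed reads in F1 and 0.466% to 0.825% in F2. Igf2, a growth factor gene of choroid plexus and meninges, took 0.426% to 0.676% in F1 and 0.807% to 1.51% in F2, without overlap. Mpeg1, a macrophage and microglia gene, took 0.281% to 0.722% and 0.681% to 0.961%, and Entpd1, an ectonucleotidase gene of microglia, 0.570% to 0.772% and 0.565% to 1.09%. All 4 amplicons had reads in every sample. Read shares of other amplicons, among them those of Azin1 and a Gria3 Lys to Arg site, were also higher in F2 without overlap. The separation was thus not particular to Igf2. The part of these read shares in the editing levels was not tested, and reads of a gene from fewer cells or from less RNA per cell cannot be told apart in such samples.

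The kainate receptor subunit genes Grik1 and Grik2 encode glutamate-gated channels that are edited in the pore (Q/R) and, in Grik2, in a membrane segment (I/V and Y/C). At Grik2 I/V the F1 levels were 51.9%, 62.0%, 53.9%, 54.9% and 46.7% in replicates 43, 69, 71, 66 and 68, and the F2 levels ran from 31.8% to 49.8% with a median of 45.7%. All F1 samples but replicate 68 were above every F2 sample. The means were 53.9% ± 5.53 (SD, n = 5) and 44.2% ± 6.69 (SD, n = 6), with an exact p of 0.0173 and an adjusted p of 0.397. The Y/C site, on the same amplicon, had means of 62.2% ± 6.28 (SD, n = 5) and 59.4% ± 3.34 (SD, n = 6) with an exact p of 0.537. The Grik2 Q/R site stood at 74.6% ± 6.79 (SD, n = 5) and 72.6% ± 3.97 (SD, n = 6), exact p = 0.429, and Grik1 at 31.5% ± 9.74 (SD, n = 5) and 24.6% ± 8.45 (SD, n = 6), exact p = 0.167. Grik1 was spread in both generations, from 20.5% to 44.2% in F1 and from 18.4% to 35.8% in F2.

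The other Grik2 sites had low levels. Grik2 G, a silent glycine site beside the Q/R site, had F1 levels of 3.1%, 3.5%, 2.8%, 3.3% and 2.1% and F2 levels from 1.8% to 2.3% with a median of 2.05%, so that 4 of 5 F1 samples lay above all F2 samples (exact p = 0.0216). Grik2 E, a silent glutamate site, was higher in F2, at 0.60% ± 0.063 (SD, n = 6) against 0.44% ± 0.152 (SD, n = 5), exact p = 0.0455. A Met to Val site of Grik2 was at 1.54% and 1.40% (exact p = 0.755). Of the 7 kainate receptor sites, 6 had a lower F2 mean, as did 89 of the 144 sites tested. The median difference of the 7 was -2.01 percentage points.

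The AMPA receptor genes encode the channels of fast excitatory transmission. Among their 10 sites, 0 had an unadjusted p under 0.05, against 9.72% of all sites tested. Their median difference was -0.0967 percentage points. The Gria2 Q/R site, which controls calcium permeability, was edited nearly completely, at 99.6% ± 0.179 (SD, n = 5) in F1 and 99.5% ± 0.133 (SD, n = 6) in F2. The R/G sites, which affect recovery from desensitization, went both ways. Gria2 R/G stood at 38.4% ± 9.30 (SD, n = 5) and 37.15% ± 5.23 (SD, n = 6), exact p = 0.931, and Gria3 R/G at 60.6% ± 7.46 (SD, n = 5) and 55.4% ± 6.50 (SD, n = 6), exact p = 0.177. Gria4 R/G was 16.8%, 20.2%, 28.1%, 24.5% and 14.5% in F1 and from 20.4% to 32.4% in F2 with a median of 25.35%, the largest mean difference toward F2 among all sites, at 5.33 percentage points (exact p = 0.126). F1 replicates 43, 68 and 69 lay below every F2 sample, and F1 replicates 66 and 71 lay within the F2 range. Gabra3, a GABA-A receptor subunit gene with an Ile to Met site, had means of 48.7% ± 5.77 (SD, n = 5) and 51.0% ± 1.82 (SD, n = 6), exact p = 0.195.

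The channel and vesicle release genes had 7 sites with a median difference of 0.347 percentage points. Cacna1d, an L-type calcium channel gene, had higher F2 means at its Ile to Met site (19.1% ± 4.52, SD, n = 5, against 23.7% ± 4.48, SD, n = 6) and its Tyr to Cys site (14.1% ± 3.01, SD, n = 5, against 15.8% ± 2.70, SD, n = 6), with exact p of 0.177 and 0.429. Kcnma1, a calcium-activated potassium channel gene, had F1 levels of 2.1%, 3.1%, 2.5%, 2.5% and 2.4% and F2 levels from 0.6% to 2.4% with a median of 2.05% (exact p = 0.0281, adjusted p = 0.397). Kcna1, a voltage-gated potassium channel gene, stood at 2.08% ± 0.672 (SD, n = 5) and 1.52% ± 0.898 (SD, n = 6), exact p = 0.329. Cadps encodes a factor that primes dense-core vesicles. Its Glu to Gly site was at 20.5% ± 4.29 (SD, n = 5) and 17.2% ± 2.60 (SD, n = 6), exact p = 0.126. Its silent alanine site was the larger of the 2 sites with higher F2 levels and an unadjusted p under 0.05, at 1.6%, 0.6%, 1.1%, 0.8% and 2.4% in F1 and from 1.9% to 3.3% in F2 with a median of 2.45% (exact p = 0.0216). Flna, a gene for an actin crosslinker, had a Gln to Arg site at 5.84% ± 0.924 (SD, n = 5) and 5.40% ± 3.35 (SD, n = 6), with an exact p of 0.329.

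**Figure D3:**
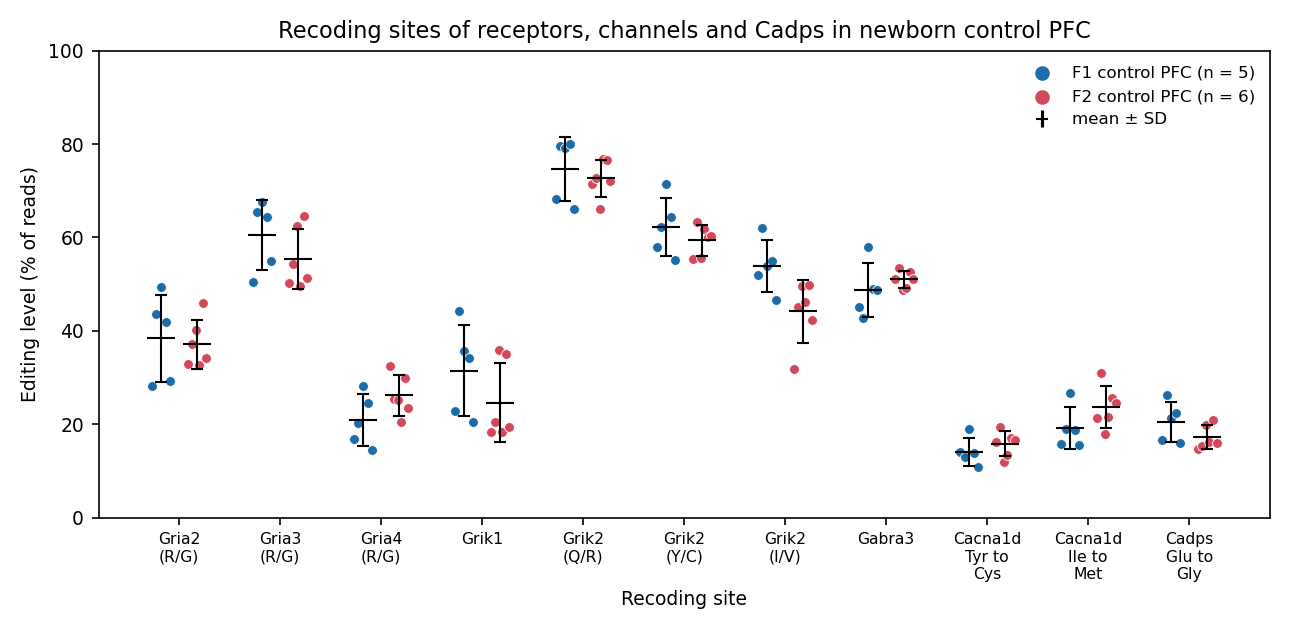
Editing level (percent of reads, y axis) at 11 recoding sites (x axis) of receptor, channel and vesicle release genes in each F1 (blue, n = 5) and F2 (red, n = 6) control PFC sample, with black bars for mean ± SD. The groups overlap at all 11 sites, and F1 has the larger SD at every site but Grik2 I/V.

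Adarb1 encodes ADAR2, an editing enzyme, and its own transcript is edited. At position 11709472 the F1 levels were 33.9%, 32.5%, 27.0%, 42.4% and 37.7% in replicates 43, 69, 71, 66 and 68, and the F2 levels ran from 20.1% to 29.8% with a median of 24.05%. All F1 samples but replicate 71 lay above every F2 sample, with means of 34.7% ± 5.77 (SD, n = 5) and 24.97% ± 3.87 (SD, n = 6), an exact p of 0.0173 and an adjusted p of 0.397. At position 11709486 the F1 levels were 66.1%, 57.2%, 66.1%, 68.2% and 68.0% and the F2 levels ran from 52.2% to 64.7% with a median of 57.45% (exact p = 0.0260). All F1 samples but replicate 69 were above every F2 sample. The 4 Adarb1 sites all had lower F2 means, as did 89 of the 144 sites tested. The median difference of the 4 was -5.63 percentage points.

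The remaining sites with an unadjusted p under 0.05 lay outside coding sequence. Dagla, for a lipase that makes an endocannabinoid, had a 3′ UTR site at chromosome 1, position 212734070, with F1 levels of 8.7%, 11.8%, 7.5%, 9.7% and 7.0% and F2 levels from 3.2% to 8.7%, median 4.85% (exact p = 0.0195). An Ankrd28 3′ UTR site at chromosome 16, position 7169174, had F1 levels of 1.0%, 4.6%, 2.3%, 1.6% and 1.7% and F2 levels from 0.0% to 1.6%, median 0.50% (exact p = 0.0238). Over the whole Ankrd28 cluster of 20 sites, 10 means were lower and 10 higher in F2, with a median difference of -0.0250 percentage points. An intronic site of Dffa, a gene for an inhibitor of a DNA-cutting nuclease of apoptosis, had F1 levels of 3.9%, 6.4%, 11.2%, 8.9% and 11.2% and F2 levels from 0.3% to 6.9%, median 1.7% (exact p = 0.0433). Celf4, for an RNA-binding protein, was at 0.26% ± 0.055 (SD, n = 5) and 0.13% ± 0.082 (SD, n = 6), levels near the 0.1% step of the files (exact p = 0.0433).

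Over all 144 sites tested, 89 had a lower F2 mean and 14 (9.72%) an unadjusted p under 0.05. The counts below were not tested against these shares. By class, nonsynonymous sites had lower F2 means at 27 of 40, with a median difference of -0.133 percentage points. Of them, 4 had an unadjusted p under 0.05. The 3′ UTR sites had lower F2 means at 40 of 71 with a median difference of -0.0367, and synonymous sites at 11 of 16 with a median of -0.102. The 5′ UTR sites had lower means at 5 of 6 with a median of -2.43, of which 4 are the Adarb1 sites. The intergenic sites had lower means at 5 of 7, with a median of -0.213. The 29 learning- and stress-related sites that the study singled out had lower means at 22 and a median difference of -0.910 percentage points, with 5 lower and 1 higher at an unadjusted p under 0.05. That list includes the 4 coding Htr2c sites. Among the 12 Nova1 and Son sites, in genes for a neuronal splicing regulator and a splicing cofactor, 0 had an unadjusted p under 0.05.

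Mean editing over the 134 common sites was 7.52%, 8.96%, 9.35%, 8.89% and 8.11% in F1 replicates 43, 69, 71, 66 and 68, and ran from 6.45% to 8.14% in F2 with a median of 7.41%. The 3 highest F1 samples lay above all F2 samples, the other F1 samples lay within the F2 range, and 3 F2 samples lay below all F1 samples. The coding Htr2c sites made up 53.3% of the summed difference. Without those 4 sites the means were 7.38% ± 0.427 (SD, n = 5) and 6.80% ± 0.258 (SD, n = 6), a difference of -0.581 percentage points (exact two-sided permutation p = 0.0325). The median over sites of the per-site difference was -0.0833 percentage points. A related measure, each sample's median deviation from the site means, gave an exact permutation p of 0.171 between the generations. That p is not a test of the -0.0833 itself. The 34 nonsynonymous sites without Htr2c gave a difference in means of -0.964 (exact permutation p = 0.249). The 63 sites in 3′ UTRs gave -0.200 (exact permutation p = 0.182). The exact p of the mean over 134 sites went to between 0.0619 and 0.0667 when any of F1 replicates 66, 69 and 71 or F2 replicates 130, 150 and 157 was left out.

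**Figure D4:**
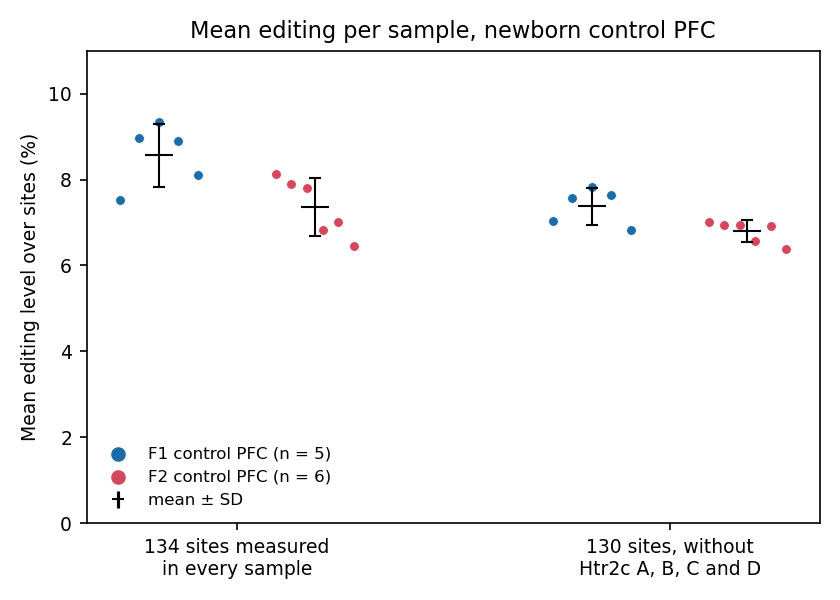
Mean editing level per sample (percent, y axis from 0) over the 134 sites measured in all 11 samples and over 130 sites without Htr2c A to D, for F1 (blue, n = 5) and F2 (red, n = 6) control PFC, with black bars for mean ± SD. The group means are 8.56% and 7.36% with Htr2c and 7.38% and 6.80% without.

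Editing varied as much within a generation as between the generations at several sites. Levels spanned 20 percentage points or more at 8 sites in F1 and at 6 sites in F2, and the 4 coding Htr2c sites were among them in both. The SD was larger in F2 at 71 sites and larger in F1 at 70, with a median SD of 0.387 in F1 and 0.514 in F2. Over 11 recoding sites of receptors, channels and Cadps, F1 replicates 43 and 68 were each among the 2 lowest F1 samples at 10 sites, with means over the 11 of 35.3% and 34.4% against 42.6% to 46.4% in the other F1 samples. Those 2 samples also had the fewest summed reads of all, 942328 and 689665. The part of read depth in this was not tested. In F2, replicate 150 was among the 2 highest at 10 of the 11 sites and replicate 131 among the 2 lowest at 8. Over the 11 sites the group means were 40.4% ± 5.29 (SD, n = 5) and 38.8% ± 2.71 (SD, n = 6), and this order of samples was noticed after the levels were seen.

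Some samples stood apart at single sites of genes outside the synapse. Blcap, a gene recoded near its start codon, had a Lys to Arg site at 43.1% in F1 replicate 43, where it had 255 reads, and at 0.9% to 1.7% in the other F1 samples. In F2 replicate 131 the same site was at 6.7%, against 0.3% to 2.1% in the other F2 samples, and the Blcap Tyr to Cys site was at 36.7% in that sample against 1.9% to 15.0% in the other F2 samples. Gtf3c2, a gene for a subunit of an RNA polymerase III initiation factor, had a Thr to Ala site at 10.4%, 14.1%, 13.6%, 11.7% and 11.8% in F1 and from 0.2% to 18.2% in F2 with a median of 1.45%. All F2 samples but replicate 130 lay below every F1 sample, and the exact p was 0.0779. F2 replicates 131, 150 and 160 were at most 0.7% at the Dffa site, while 154 and 157 were at 6.9%. The same 3 samples were at 0.6%, 0.3% and 1.0% at an intergenic site on chromosome 3, position 154378446, against 2.8% to 6.1% in the other F2 samples. Copa, for a coat protein of transport vesicles, was at 5.78% ± 0.402 (SD, n = 5) and 6.28% ± 1.92 (SD, n = 6). Nova1, whose protein regulates neuronal splicing, had a Ser to Gly site at 12.4% in F2 replicate 157 and at no more than 1.0% in the other samples measured. Without F2 replicates 131 and 150, 8 sites had an unadjusted p under 0.05 and 7 of them were among the 14.

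The generation difference was then set beside that of 2 other kinds of newborn sample in the series: control amygdala (AMY), and PFC of the line whose founding females had undergone PRS. Their sample numbers all differ from those of control PFC, and no sample is shared. The labels do not say whether PFC and AMY samples came from the same pups, and the permutation test treated them as independent. In control AMY, the means over 122 sites common to all 4 groups were 10.7% ± 0.411 (SD, n = 5) in F1 and 9.25% ± 0.949 (SD, n = 7) in F2. The difference was -1.41 percentage points, beside -1.36 in control PFC over the same sites, and the difference of the differences was 0.0516 (permutation p = 0.938 over 100000 resamples), which does not show that the regions were alike. Htr2c A in control AMY was 82.0% ± 7.97 (SD, n = 5) in F1 and 58.9% ± 16.8 (SD, n = 7) in F2, and Htr2c B 72.0% ± 7.85 (SD, n = 5) and 50.9% ± 16.0 (SD, n = 7), both with an exact p of 0.0101. Library-number set 4 held 1 control AMY sample of each generation. Site A was at 80.4% in its F1 sample and 79.4% in its F2 sample, and site B at 72.6% and 71.9%. The other 6 F2 samples lay in set 6, with site A from 27.6% to 72.0%. The part of the set in this difference was not tested. Of 144 sites, 0 (0%) differed in generation difference between the regions at FDR 0.1, with 2 at an unadjusted permutation p under 0.05, and 0 (0%) passed for AMY alone, with 23 (16%) at an unadjusted exact p under 0.05.

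In the PRS line the generation difference of PFC had the other sign. Over 116 sites common to the 4 groups, mean editing was 8.27% ± 1.49 (SD, n = 6) in F1 PRS and 9.65% ± 0.785 (SD, n = 7) in F2 PRS, a difference of 1.38 percentage points beside -1.29 in control PFC. The difference of the differences was -2.67 percentage points (permutation p = 0.00511 over 100000 resamples). Without the 4 coding Htr2c sites it was -1.06 (permutation p = 0.0824). With males only it was -2.15 (permutation p = 0.0651), with 2 F2 PRS males.

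Of 144 sites, 4 (2.78%) differed in generation difference between the lines at FDR 0.1. Htr2c A in PRS PFC ran from 4.9% to 64.1% in F1 with a mean of 27.8% ± 24.2 (SD, n = 6), and from 49.4% to 82.2% in F2 with a mean of 61.0% ± 13.6 (SD, n = 7). Among the F1 PRS samples, replicates 36 and 37 had only 344 and 687 reads at site A, with levels of 17.2% and 18.6%. Replicate 39, with 5823 reads, was the lowest at 4.9%. The difference of differences at site A was -69.2 percentage points (adjusted permutation p = 0.0295). Htr2c B was 21.4% ± 19.7 (SD, n = 6) in F1 PRS and 51.1% ± 14.1 (SD, n = 7) in F2 PRS, and its difference of differences was -66.8 (adjusted permutation p = 0.0216). Adarb1 at position 11709472 was 27.4% ± 2.50 (SD, n = 6) and 38.9% ± 11.0 (SD, n = 7), with a difference of differences of -21.3 (adjusted permutation p = 0.0583). Gtf3c2 was 6.97% ± 4.06 (SD, n = 6) and 16.9% ± 7.16 (SD, n = 7), with a difference of differences of -17.6 (adjusted permutation p = 0.0583). In the PRS line alone 0 of 144 sites (0%) passed FDR 0.1 between the generations, and 12 (8.33%) had an unadjusted exact p under 0.05.

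The library-number sets of PFC held both lines, so this comparison, unlike that of the generations, could be made within sets. Htr2c A averaged 34.7% in the control sample and 13.6% in 3 PRS samples of set 1, and 70.85% in 4 control and 42.1% in 3 PRS samples of set 5, which are the F1 sets. In the F2 sets it averaged 26.2% in 4 control and 53.05% in 2 PRS samples of set 4, and 30.35% in 2 control and 64.1% in 5 PRS samples of set 6. In each F1 set the control samples had the higher mean and in each F2 set the lower mean. In PFC each set also held a single sex. With the set as a block the difference of differences was -56.9 percentage points for site A and -57.6 for site B (adjusted permutation p = 0.0346 for each), -24.0 for Adarb1 (adjusted permutation p = 0.0480) and -15.1 for Gtf3c2, which no longer passed (adjusted permutation p = 0.171). Htr2c A and B passed FDR 0.1 when any of the 24 samples was left out. Adarb1 no longer passed without F1 control 66, F2 control 131, F2 control 154 or F1 PRS 67, and Gtf3c2 without any of F1 control 66 and 71, F2 control 131, 150, 154 and 160, and F1 PRS 39 and 67. The count of sites was 2 without F1 control 66, F2 control 131, F2 control 154 or F1 PRS 67, and 8 without F1 control 43, F2 control 157, F1 PRS 64 or F2 PRS 158.

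**Figure D5:**
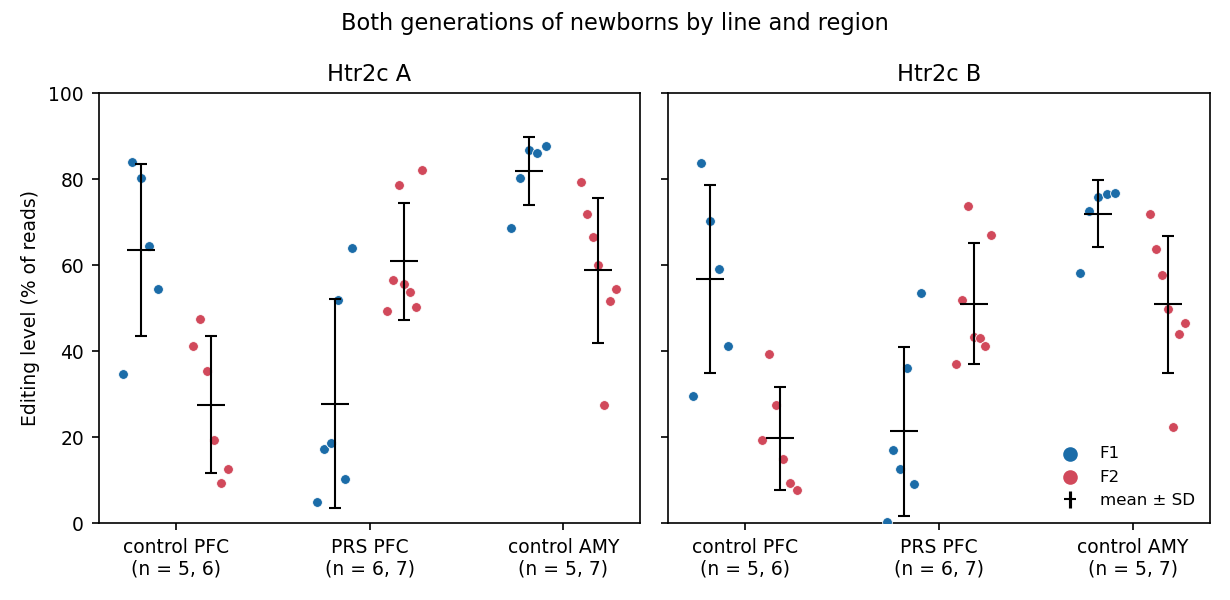
Editing level (percent of reads, y axis) at Htr2c A (left) and B (right) in each newborn F1 (blue) and F2 (red) sample of control PFC, PRS PFC and control AMY (x axis, n for F1 and F2 below each name), with black bars for mean ± SD. F2 means lie below F1 means in control PFC and control AMY and above them in PRS PFC.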

How the data were processed

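Per the labels and the study's methods, the authors amplified edited loci from PFC or AMY cDNA by microfluidic multiplex PCR (mmPCR-seq), mapped the reads to the rat genome (rn4) with BWA, and divided reads with G by all reads at each listed site. The submitters' processing notes also name SAMtools. The version of BWA is not given in the sources used here. The deposited tables hold, per sample and site, a read count (coverage) and the editing level as a fraction, printed here in percent. The samples, sites and gene lists were chosen with earlier results of these data known.

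Levels were used at 50 reads or more. Sites with 3 or more samples a side were compared by a Mann-Whitney U test (exact, two-sided) with Benjamini-Hochberg adjustment over 144 sites at FDR 0.1, and mean editing by an exact permutation test of means. Generation differences were compared by permuting the residuals of a linear model without the interaction term (100000 resamples, smallest possible p 1e-05). Alternatives included a minimum of 200 reads or none, a quasi-binomial model on reads, limma 3.58.1 on logit levels with and without the library-number set as a random block (consensus correlation 0.170), males only, F2 replicate 155 kept, and each sample left out. Sites named with values were the 4 coding Htr2c sites, the receptor and channel recoding sites, sites that passed FDR 0.1 in any comparison, and, chosen after their values were seen, sites with an unadjusted p under 0.05 or a sample far from the rest. The tests were also run on simulated data as a check of the code. The simulated spread between samples was set by hand, so those runs do not show how the tests behave with the spread seen here. Analyses used Python 3.11.15, numpy 2.4.6, pandas 2.3.3, scipy 1.17.1, matplotlib 3.10.9 and R 4.3.3. Read shares per amplicon depend on the multiplex PCR and are not expression.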

Additional observations from a re-analysis of the deposited data

Results flagged for a closer look

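Of 76 groups of levels examined, 7 held a sample far from the others. By chance the rule flags about 1 group in 20. Some of the sites were named because a sample stood apart, so the count cannot be set against that rate. At Adarb1 11709486, F1 replicate 69 was at 57.2% and the other F1 samples between 66.1% and 68.2%. The Blcap Lys to Arg site was at 43.1% in F1 replicate 43 (others at most 1.7%) and at 6.7% in F2 replicate 131 (others at most 2.1%). F1 replicate 43 was at 2.4% at the intergenic site on chromosome 3, position 154378446, with the other F1 samples between 5.2% and 5.7%. Gtf3c2 was at 18.2% in F2 replicate 130 and at most 6.4% in the other F2 samples. The Nova1 Ser to Gly site was at 12.4% in F2 replicate 157 and at most 1.0% in the others. An intergenic site on chromosome 5, position 145407421, was at 25.8% in F2 replicate 131 and at most 4.6% in the others.

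The generation difference of control PFC minus that of PRS PFC was -2.67 percentage points for mean editing, -66.8 for Htr2c B, -69.2 for Htr2c A, -21.3 for Adarb1 11709472 and -17.6 for Gtf3c2, each past its threshold in the permutation test of the difference itself. Gtf3c2 no longer passed with the library-number set as a block (adjusted permutation p = 0.171) or without any of F1 control 66 and 71, F2 control 131, 150, 154 and 160, and F1 PRS 39 and 67. Adarb1 no longer passed without F1 control 66, F2 control 131, F2 control 154 or F1 PRS 67.

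Some listed sites had too few samples for the comparison but levels above 0. Mcrs1, recoded in a nucleolar protein gene, reached 22.1% over 7 samples, with F1 levels from 15.4% to 18.8% and levels of 15.4% and 22.1% in the 2 F2 females. The highest levels elsewhere were 0.7% and 0.5% at the Psma3 sites, 0.8% at Slco2a1, 0.5% and 0.9% at the Pdcd7 sites in 1 sample each, and 0.4% at an intergenic site, chromosome position 103626570, in 1 sample.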

How the results depend on the processing

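All 14 sites with an unadjusted p under 0.05 kept their sign in every alternative in which they were tested. Alternatives that changed only the list of sites or the adjustment could not change a sign. The count passing FDR 0.1 was 0 in every setting except the quasi-binomial model on reads, which gave 4. The count at an unadjusted p under 0.05 (14) was 8 with the library-number set as a random block in limma, 4 with males only, 8 without F2 replicates 131 and 150 (an alternative chosen after seeing the data) and 9 to 18 when each sample was left out in turn, 9 without F1 replicate 66. The difference in mean editing was -0.330 on the logit scale (exact permutation p = 0.0519) and -1.23 without F2 replicates 131 and 150 (exact permutation p = 0.0556). It ran from -1.46 to -1.01 with each sample left out. As the median over sites it was -0.0833, and each sample's median deviation from the site means gave an exact permutation p of 0.171. With F2 replicate 155 kept it was -1.82 (exact permutation p = 0.00758).

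Against PRS PFC, the difference of differences in mean editing was -2.15 with males only and -1.06 without the coding Htr2c sites, and -3.15 to -2.31 with each sample left out; the count of sites was 2 to 8. Against control AMY it was 0.0516 over 122 sites, but -0.0981 on the logit scale and -0.196 with the set as a block. Over other sets of sites it was -0.0692 at 200 reads (109 sites), -0.235 with replicate 155 kept (87 sites) and -0.124 with males only (126 sites). It ran from -0.231 to 0.339 with each sample left out. With males only 1 site passed (Gria4 L).

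Single sites without a small p also changed sign, given here as F2 minus F1 in percentage points with the range over samples left out. Blcap Lys to Arg ran from -9.96 to 0.592, the latter without F1 replicate 43. Blcap Tyr to Cys was -2.25 with males only and -0.715 without F2 replicates 131 and 150, ran from -2.20 to 4.76, and in limma was -0.313 and, with the block, -0.198 in logit units. Copa ran from -0.18 to 0.88. Flna was 0.61 without F2 replicates 131 and 150 and ran from -1.68 to 0.20. Gria2 R/G ran from -3.83 to 1.45. The intergenic site on chromosome 5 was -0.90 with males only and -0.57 without F2 replicates 131 and 150, and ran from -0.32 to 4.52. The cause of these changes was not tested.

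No paired analysis was possible because the F1 and F2 samples share no replicate number. With 5 and 6 samples, unknown litters and no library-number set that held both generations, the comparison could not separate generation from library-number set. Read depth was ample at most sites, and the number of samples limits the precision.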
